A study of Mus musculus with 6 samples.

Results

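Retinoic acid acts through nuclear receptors of the RAR family, which bind DNA as pairs with a receptor of the RXR family. Without ligand the pair holds corepressor complexes at its target genes, and ligand exchanges them for coactivators. In the limb bud, retinoic acid comes from the trunk and the enzyme Cyp26b1 clears it from the distal mesenchyme. The genes described here were the receptors Rara, Rarg, Rxra and Rxrb and the corepressors Ncor1, which unliganded receptors hold, and Nrip1, which also binds receptors that carry ligand. They were taken by symbol from a table of 12065 genes, and all 6 had 1 row each and passed the filter of at least 1 CPM (reads of a gene scaled to a common library size by the authors) in 3 libraries. The paralogs Rarb and Rxrg had no row among those used and were not analysed here.

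RNA came from the distal tips of mouse limb buds. The overexpressing embryos were HoxB6CreER; R26Meis2a-IRES-EYFP/Meis2a-IRES-EYFP, and the controls were R26Meis2a-IRES-EYFP/Meis2a-IRES-EYFP without the Cre. All mothers received 0.8 mg of 4-hydroxytamoxifen at embryonic day 8.3, which activates the Cre recombinase under HoxB6 control and with it the Meis2a transgene. Each genotype had 3 libraries, 1 pool of 2 embryos each at 37, 38 and 39 somites, and the controls lacked the Cre itself, so that its own effects cannot be told apart from those of Meis2. The labels state neither the share of cells that recombined nor whether fore- or hindlimbs were taken.

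Libraries held 7622698 to 15395447 recovered reads. Meis2, a homeobox gene of the proximal limb, had 41.3, 33.4 and 28.2 CPM in overexpressing tips and 20.6, 15.3 and 13.8 CPM in controls, and rose in the libraries labelled as overexpressing (34.3 ± 6.62 against 16.6 ± 3.61 CPM, SD, n = 3 each; adjusted p = 0.0185). Its call was lost without overexpressing replicate 2 (adjusted p = 0.0651), control replicate 2 (0.0681) or control replicate 3 (0.0693), and with robust variance and no trend (0.0676). All 14 limb mesenchyme markers were in the table and 0 were called by limma or edgeR, with 8 higher and 6 lower by sign, and they summed to 1793 to 2115 CPM in overexpressing and 1947 to 2273 CPM in control libraries. With somite number in the fit 3 of them were called, Prrx1 higher (log2 fold change 0.37) and Hoxa13 (-0.78) and Hoxd13 (-0.74) lower. Hoxd13 weighed on the sum, with 260 to 503 CPM in overexpressing and 433 to 803 CPM in control libraries. Prrx1 went the other way, at 477 to 580 against 358 to 460 CPM, so the sum is no measure of mesenchyme content. Of 21 ectoderm markers 9 fell, Epcam, Cdh1, Fgf8 and Trp63 among them, where 0.680% of all genes fell, and all 21 were lower by sign. The 21 markers summed to 546 to 605 CPM in overexpressing and 781 to 827 CPM in control libraries. All 13 measured erythroid markers were higher by sign, and they summed to 4107 to 4911 CPM in overexpressing and 2380 to 3479 CPM in control libraries. Of these Hbb-b2, Slc4a1 and Hba-x rose, where 0.787% of all genes rose. The 13 endothelial markers, 12 of them higher by sign, summed to 330 to 346 CPM in overexpressing and 262 to 299 CPM in control libraries, and 1 of them, Kdr, rose. Without 1 library the calls numbered 2 to 7 for ectoderm (2 without overexpressing replicate 2 or control replicate 3), 0 to 4 for erythroid (0 without either of the same libraries) and 0 or 1 for endothelial markers (0 without replicate 1 or 2 of either genotype). Robust variance and no trend left 3 ectoderm, 0 erythroid and 0 endothelial markers called. The part of these cell types in the differences given next was not tested, and in whole tissue fewer cells of a type and less RNA per cell cannot be told apart.

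The promoters of the 6 genes show which letters of the retinoid response element stand next to their start sites. RefSeq (build GRCm38.p6) gave 14 windows of 300 bases for these genes, 2 to 4 per gene, from 250 bases before a start to 50 after it. The receptor half-site was searched on both strands as AGGTCA and its variant GGGTCA. The forms with a further T, written AGTTCA when the first base is A and as GGTTCA when it is G, counted too. The core bound by Meis proteins was searched as TGACAG on both strands. A half-site was present in 6 of the 14 windows, against 43.7% of all 32851 windows of the table, and TGACAG in 3 windows (Rara, Rxrb and Nrip1) against 19.2%. The windows with a half-site belonged to 5 of the 6 genes. That count cannot be set against the share of windows, because each gene had 2 to 4 of them. No window held 2 half-sites as a direct repeat with 5, 2 or 1 bases between them, which 0.0974%, 0.268% and 0.222% of all windows did. The windows with at least 3 half-sites, a density that 2.93% of all windows reached, belonged to Nrip1, Rara and Rxra. Their 250 bases before the start follow, 5′ to 3′ on the gene's strand, with half-sites and TGACAG of either strand in capitals. No half-site overlapped TGACAG in them. The Nrip1 window (chr16:76373828-76374077, minus strand) held no annotated exon base and lay upstream of the gene's outermost start. The Rara window (chr11:98939461-98939710, plus strand) and the Rxra window (chr2:27709042-27709291, plus strand) lay within introns of longer transcripts of those genes.
Nrip1: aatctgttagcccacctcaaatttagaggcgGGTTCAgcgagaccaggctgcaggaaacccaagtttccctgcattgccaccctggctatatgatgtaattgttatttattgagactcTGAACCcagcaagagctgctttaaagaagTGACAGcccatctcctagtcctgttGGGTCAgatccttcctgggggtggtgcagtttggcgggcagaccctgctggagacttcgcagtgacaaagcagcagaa
Rara: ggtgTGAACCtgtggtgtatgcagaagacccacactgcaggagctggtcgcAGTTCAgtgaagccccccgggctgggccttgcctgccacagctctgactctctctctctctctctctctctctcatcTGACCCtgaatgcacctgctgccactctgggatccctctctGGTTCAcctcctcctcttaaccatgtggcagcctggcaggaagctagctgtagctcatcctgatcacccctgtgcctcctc
Rxra: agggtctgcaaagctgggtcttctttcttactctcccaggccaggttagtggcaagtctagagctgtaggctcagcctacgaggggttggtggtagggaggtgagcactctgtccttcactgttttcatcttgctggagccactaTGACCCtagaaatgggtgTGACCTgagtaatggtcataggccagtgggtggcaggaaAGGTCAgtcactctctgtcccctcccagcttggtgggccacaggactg
In the Nrip1 window TGACAG began at position -103 from the start, while those of Rara and Rxrb lay after the start, outside the bases shown. These matches describe letters and show no binding, and no isoform-level values were used here, so that the reads cannot be assigned to one start.

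The overexpressing tips were compared with the controls over all 12065 genes at once. None of the 6 genes was called by limma at an adjusted p under 0.05, where 1.47% of all genes were. All 6 had a positive fold change, as 6028 of the 12065 genes did, with a median log2 fold change of 0.17 against -0.00 over all genes. At an unadjusted p under 0.05, 3 of them passed (Rara, Rarg and Nrip1) against 15.9% of all genes. EdgeR and DESeq2 on the recovered reads, which called 1.42% and 2.40% of all genes, also called 0 of the 6, with 3 (Rara, Rxrb, Nrip1) and 2 (Rara, Nrip1) at an unadjusted p under 0.05. The genotypes did not overlap in Rara, Rxrb and Nrip1, each higher in overexpressing tips, as in 10.4% of all genes. An exact two-sided permutation test of 3 pools against 3 cannot go below 0.1, the value these 3 genes had. That test gave 0.2 for Rarg, 0.3 for Rxra and 0.4 for Ncor1.

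**Figure D1:**
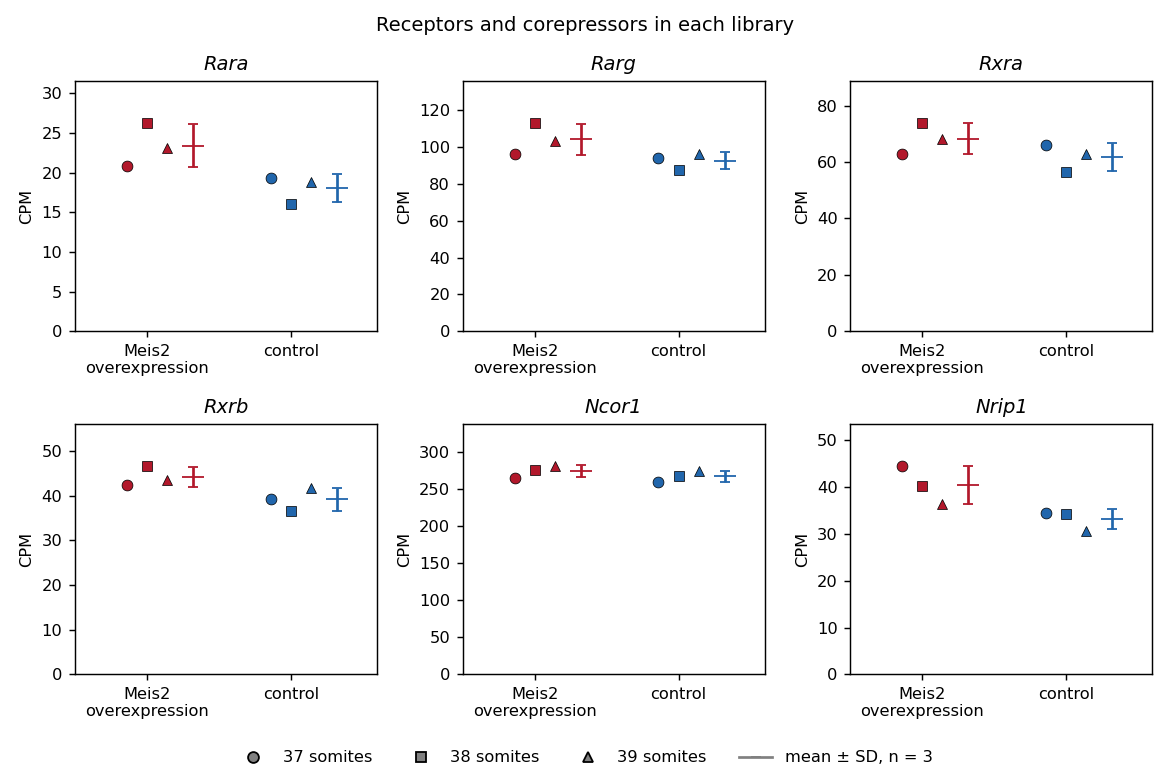
CPM (y axis, from 0) of each of the 6 genes in every library, with overexpressing tips in red and controls in blue. Symbols give the somite stage and the bar the mean ± SD of 3 pools. In the 4 receptors the 38-somite square is the highest of the overexpressing pools and the lowest of the controls.

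Among the receptors for retinoic acid itself, Rara had the larger fold change. It had 20.9, 26.3 and 23.1 CPM in overexpressing tips at 37, 38 and 39 somites, against 19.3, 16.1 and 18.8 CPM in controls. These values rest on 223, 203 and 357 reads in overexpressing tips and 204, 184 and 157 reads in controls, the fewest of the 6 genes in every library. The lowest overexpressing pool stood above the highest control. Its log2 fold change was 0.36 (SE 0.11, adjusted p = 0.165), which is 27.9% on the scale of CPM + 1, with a 95% interval of 7.80% to 51.8% that is not adjusted for the number of genes. Of all genes, 96.2% had a lower fold change.

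Rarg, the receptor most associated with limb mesenchyme and cartilage, had 96.1, 113 and 103 CPM in overexpressing tips, against 93.8, 87.7 and 96.4 CPM in controls. The ranges overlapped, since the 37-somite overexpressing pool lay just below the 39-somite control. The log2 fold change was 0.17 (SE 0.07, adjusted p = 0.304), or 12.1% (95% interval 0.256% to 25.4%). The ratio of Rarg to Rara reads was 4.61, 4.31 and 4.47 in overexpressing tips, against 4.85, 5.46 and 5.13 in controls. Every overexpressing pool was below every control in this ratio, which compares reads and not molecules, and for which no across-gene test exists.

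The RXR receptors, the partners of RARs on DNA, were also not called. Rxrb had 42.4, 46.6 and 43.4 CPM in overexpressing tips, against 39.2, 36.6 and 41.7 CPM in controls, a log2 fold change of 0.17 (SE 0.08, adjusted p = 0.315). All 3 overexpressing pools were above all controls, the closest by less than 1 CPM. Rxra had 62.8, 73.9 and 68.3 CPM in overexpressing tips, against 65.9, 56.4 and 62.9 CPM in controls (log2 fold change 0.14, SE 0.08, adjusted p = 0.424). Its genotypes overlapped, and at 37 somites the control was the higher of the pair. The 95% intervals were -0.114% to 26.6% for Rxrb and -2.70% to 25.5% for Rxra.

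The corepressors gave the smallest and the second-largest difference of the 6. Ncor1, the scaffold that carries histone deacetylase to unliganded receptors, had 265, 275 and 281 CPM in overexpressing tips, against 260, 267 and 274 CPM in controls. The log2 fold change was 0.03 (SE 0.05, adjusted p = 0.779), with a 95% interval of -5.57% to 11.1%. Ncor1 varied least within a genotype, with a coefficient of variation of 2.97% in overexpressing tips and 2.71% in controls, where the other 5 genes had 4.84% to 11.7%. Ncor1 also had the most reads of the 6 genes in every library (2124 to 4345), and the part of read number in this variation was not tested. Exons of Ncor1 share 82 bases with Pigl on the opposite strand, 0.64% of its merged exon length, and strand was not given for the counts. Nrip1, known as RIP140, had 44.5, 40.1 and 36.5 CPM in overexpressing tips, against 34.5, 34.3 and 30.7 CPM in controls. The groups did not overlap, and the overexpressing pool was higher at each stage. Its log2 fold change was 0.27 (SE 0.09, adjusted p = 0.184), or 21% (95% interval 5.21% to 39.1%).

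**Figure D2:**
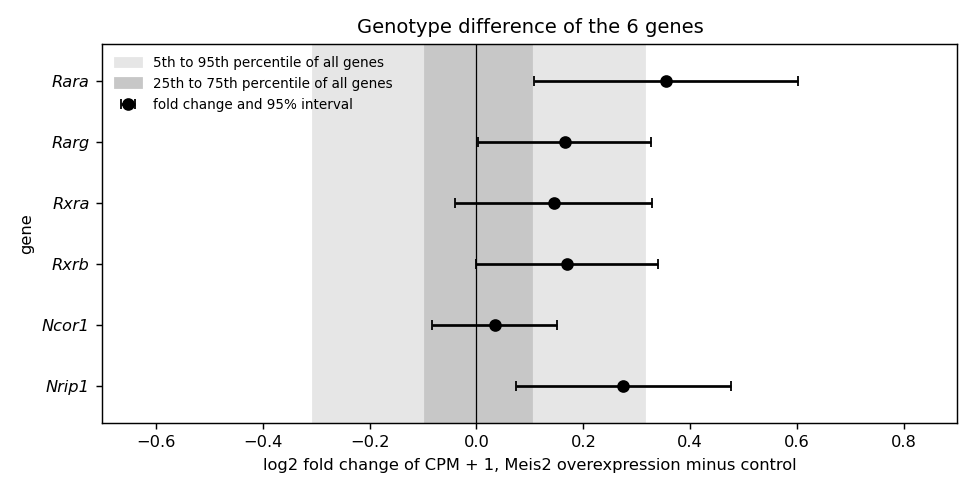
Log2 fold change of CPM + 1 (x axis, overexpression minus control) of the 6 genes with 95% intervals from limma, 3 pools per genotype. The shaded bands hold the 25th to 75th and 5th to 95th percentiles of all 12065 genes. Rara, at 0.36, lies beyond the 95th percentile (0.31), and Ncor1, at 0.03, near the middle.

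The 4 receptors shared the highest and the lowest library, which the corepressors did not. In each of them, overexpressing replicate 2 was the highest and control replicate 2 the lowest of the 6 libraries, both of them 38-somite pools. That pattern was present in 10.3% of all genes. In Ncor1 both genotypes were in the order of stage, lowest at 37 and highest at 39 somites, and in Nrip1 both were in the reverse order. Overexpressing replicate 2 was also the shallowest library, with 7622698 reads. It had the lowest ectoderm sum (546 CPM) and the highest erythroid and endothelial sums (4911 and 346 CPM) of the 6 libraries. Control replicate 2 had the lowest endothelial sum of the 6 libraries (262 CPM) and the lowest ectoderm sum of the controls (781 CPM). The part of these in the receptors' values was not tested.

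The same-stage difference in log2(CPM + 1) put this in numbers. For Rara it was 0.11 at 37, 0.68 at 38 and 0.28 at 39 somites. For Rarg it was 0.03, 0.36 and 0.10, for Rxra -0.07, 0.39 and 0.12, and for Rxrb 0.11, 0.34 and 0.06. Nrip1 stood at 0.36, 0.22 and 0.24, and Ncor1 at 0.03, 0.04 and 0.03. Without both 38-somite libraries, a choice made after seeing the values, the log2 fold change was 0.19 for Rara, 0.07 for Rarg, 0.02 for Rxra and 0.08 for Rxrb, against 0.30 for Nrip1 and 0.03 for Ncor1. None of the 6 was called in that fit, in which 0.365% of all genes were. The libraries left out were the highest and the lowest of every receptor, but not of Nrip1 or Ncor1. A smaller receptor value was therefore fixed by the choice, and the contrast with Nrip1 is no test.

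**Figure D3:**
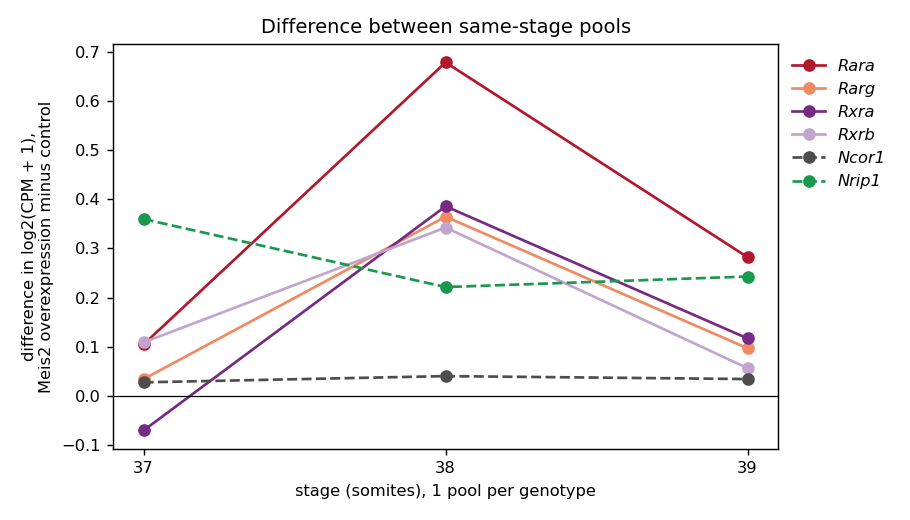
Difference in log2(CPM + 1) between the overexpressing and the control pool of the same stage (y axis) at 37, 38 and 39 somites (x axis), 1 pool per genotype and stage. The receptors (solid lines) peak at 38 somites, Rara at 0.68, while Nrip1 stays between 0.22 and 0.36 and Ncor1 near 0.03 (dashed lines).

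Stage was then fitted beside genotype. None of the 6 genes had a slope that was called by limma, where 0.356% of all genes did. At an unadjusted p under 0.05 Nrip1 alone of the 6 passed, against 6.28% of all genes, and likewise in edgeR, which called 0 of the 6. Nrip1 had a slope of -0.11 log2 units per somite (SE 0.05, adjusted p = 0.732) and was lowest at 39 somites in both genotypes. Ncor1 had 0.04 (SE 0.03, adjusted p = 0.95). The receptors lay between 0.01 for Rxra and 0.04 for Rarg, each with an SE larger than its slope. With somite number in the genotype fit, Nrip1 had an adjusted p of 0.101 and Rara one of 0.157, and 0 of the 6 were called, where 2.82% of all genes were.

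Levels of different genes were set side by side per kilobase of merged exons (GENCODE M21), as CPM per kb. Rarg had 24.4 ± 2.02 in overexpressing tips and 21.7 ± 1.05 in controls (SD, n = 3 each), the highest of the receptors. Ncor1 followed at 21.4 ± 0.635 in overexpressing tips and 20.9 ± 0.566 in controls, within the spread of Rarg in controls but below every Rarg pool in overexpressing tips. Rxra had 12.5 ± 1.02 CPM per kb in overexpressing tips and 11.3 ± 0.894 in controls, and Rxrb 11.1 ± 0.558 in overexpressing tips and 9.85 ± 0.645 in controls. The ranges of these partners overlapped in both genotypes, and their order turned with the length of the longest coding transcript, which gave 13.9 for Rxra and 16.8 for Rxrb in overexpressing tips, and 12.6 for Rxra and 14.9 for Rxrb in controls. Rara had 5.36 ± 0.625 CPM per kb in overexpressing tips and 4.14 ± 0.403 in controls. Nrip1 was lowest, at 3.52 ± 0.352 in overexpressing tips and 2.89 ± 0.188 in controls. Summed as CPM, the 4 receptors came to 222, 260 and 238 in overexpressing tips, against 218, 197 and 220 in controls, which did not overlap. The gap was narrow (222.0 against 219.8), and no share over other sums of genes was computed. Ncor1 reads per receptor read were 1.06 to 1.19 in overexpressing tips and 1.19 to 1.36 in controls, with overlap through the 37-somite pools alone. That ratio compares reads and not molecules, since merged exons came to 12.8 kb for Ncor1 and 3.97 to 5.46 kb for the receptors.

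The other genes of the receptor machinery gave no call either. Of 14 further corepressors and their partners 0 rose, 0 fell and 14 did not pass (limma; edgeR also called 0), 8 were higher and 6 lower by sign, and their median log2 fold change was 0.03. Hdac1, a histone deacetylase of corepressor complexes, had 191 CPM in overexpressing tips and 232 CPM in controls (log2 fold change -0.28, SE 0.09, adjusted p = 0.173). The highest overexpressing pool (215 CPM) was just under the lowest control (216 CPM). Lcor, a ligand-dependent corepressor, was at -0.23 (SE 0.10, adjusted p = 0.319). Of 13 measured coactivators 0 rose, 0 fell and 13 did not pass, with 10 higher and 3 lower by sign and a median of 0.13. Ncoa6, a coactivator scaffold, was at 0.17 (SE 0.06, adjusted p = 0.220), and Ep300, a histone acetyltransferase, was also at 0.17 (SE 0.07, adjusted p = 0.307).

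Receptors that share RXR or DNA sites with the RARs were tested in the same way. Of the other partners of RXR 5 of 11 were measured, all 5 were higher by sign, 0 rose and 5 did not pass (median 0.12). Nr4a2, an orphan receptor that responds quickly to stimuli, had 7.53 CPM in overexpressing tips and 5.03 CPM in controls (log2 fold change 0.48, SE 0.17, adjusted p = 0.212), and Nr4a1 was at 0.22 (adjusted p = 0.454). Of 5 measured orphan receptors that bind retinoid elements 0 were called, with a median of -0.00. Nr2c1 was at 0.13 (adjusted p = 0.515) and Nr6a1 at 0.15 (adjusted p = 0.735).

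Genes that take up, carry, make or break down retinoids were also followed. Of 10 measured of 16 listed, 0 rose, 0 fell and 10 did not pass, with 5 higher and 5 lower by sign and a median log2 fold change of 0.01. Stra6, which imports retinol, had 20.4, 23.7 and 12.9 CPM in overexpressing tips and 10.5, 7.85 and 9.46 CPM in controls, with no overlap (log2 fold change 0.93, adjusted p = 0.0504). Crabp2, which binds retinoic acid inside cells, was at 0.36 (adjusted p = 0.102). Both were called by DESeq2 (adjusted p = 0.000320 and 0.0103) and with somite number in the fit (0.0187 and 0.0127), and Stra6 also without overexpressing replicate 3 (0.00333). Neither was called by edgeR (adjusted p = 0.0563 and 0.106) or by limma with robust variance and no trend (0.111 and 0.215). Of 10 measured genes induced by retinoic acid, 4 of which the handling list does not hold, 1 rose, 0 fell and 9 did not pass, with a median of 0.04. The gene that rose was Meis2, whose values do not separate reads of the transgene from those of the endogenous gene.

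**Figure D4:**
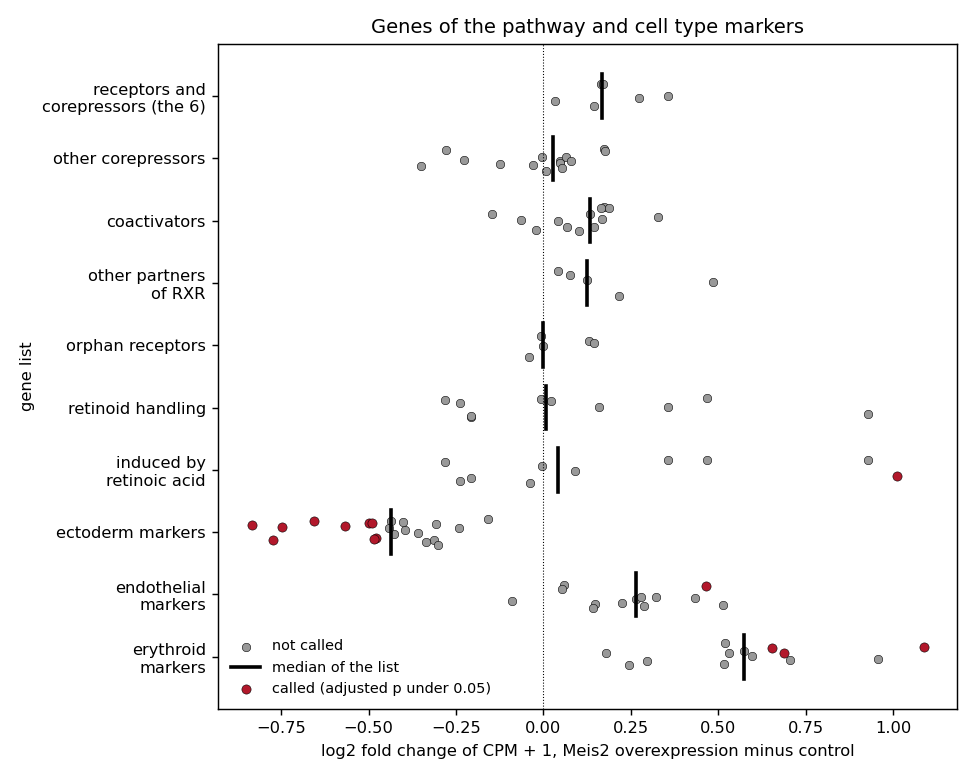
Log2 fold change of CPM + 1 (x axis, overexpression minus control) of single genes (points) in 10 lists (y axis), with the median of each list as a bar. The receptor and coregulator lists hold no called gene (red) and have medians of -0.00 to 0.17, while the ectoderm markers lie below 0 (median -0.44) and the erythroid markers above it (median 0.57).

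The genes whose profile over the 6 libraries was most like that of a member were sought among 7121 named genes that averaged 20 CPM or more. Pearson's r on log2(CPM + 1) is given as a description over 6 libraries, which differ in depth, genotype and stage for all genes alike. Closest to Rara were Sepn1 (r = 1.00) and Pdgfrb, a growth factor receptor of mesenchyme (0.998). Closest to Rarg were Plagl2 (0.998) and Fbn2, a fibrillin of the extracellular matrix (0.992). Rxra was followed by Limd2 and Tcof1 (0.997 and 0.996), and Rxrb by Itga5, a fibronectin receptor subunit, and Dennd5a (0.998 and 0.994). Ncor1 had Arid2, a chromatin remodelling subunit, and Cand1 (0.991 and 0.984), and Nrip1 had Mfsd7b and Tomm40l (0.992 and 0.988). Of the 7121 genes, 88 to 172 exceeded 0.95 for each receptor, and 15 and 27 did for Ncor1 and Nrip1.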

How the data were processed

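PolyA RNA libraries (TruSeq RNA v2, per the labels' protocols) were made from 6 pools of distal limb bud tips. Tools given, per the submitters' processing notes, were RSEM 1.17, cutadapt 1.2.1 and edgeR, with build NCBIM37, and the deposited table holds CPM that the authors computed per gene. In each library 100% of values were whole multiples of 1 step (tolerance 0.001), which gave the recovered reads. CPM was tested as log2(CPM + 1) with limma 3.58.1 (R 4.3.3, trended variance, genotype as the only term, 3 against 3 pools) over 12065 genes with Benjamini-Hochberg adjustment, called at 0.05. The filter of 1 CPM in 3 libraries removed 0 genes. Somite number was added for stage slopes. Alternatives were edgeR 4.0.16 and DESeq2 1.42.0 on recovered reads, other pseudocounts, filters and scalings, robust variance without a trend, a replicate block and leaving out libraries. Exon lengths, overlaps and near copies came from GENCODE M21 (GRCm38) and promoters from RefSeq GRCm38.p6, without converting the authors' coordinates. No member had a near-identical copy. Genes named from the lists were called members or else the 2 with the smallest p, and those most like a member were the 2 with the highest r. The 6 genes and all lists were chosen with earlier results of these data known. The limma p-values set each difference against the spread between pools of a genotype, moderated over all genes. In the fit by genotype alone that spread includes stage. The result for 1 gene of the lists is not reported here.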

Additional observations from a re-analysis of the deposited data

How the results depend on the processing

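Each of the 6 genes stayed higher by sign in overexpressing tips and uncalled in all 18 alternatives to the fit by genotype alone. The log2 fold change ran from 0.19 to 0.43 for Rara, 0.07 to 0.22 for Rarg, 0.02 to 0.20 for Rxra, 0.08 to 0.21 for Rxrb, 0.01 to 0.06 for Ncor1 and 0.20 to 0.34 for Nrip1. The count of called genes was 177, against 86 with robust variance and no trend, 290 with DESeq2, 340 with somite number as a covariate, 56 to 162 with 1 library left out and 44 without both 38-somite libraries (chosen after seeing the data, and fewer samples). The count of 56 was without overexpressing replicate 2, against 64 without control replicate 3, 90 without control replicate 2 and 115 without overexpressing replicate 1. The replicate block gave 258 calls, with Stra6 and Crabp2 but none of the 6 genes among them. Pools of the same number correlated in their deviations at 0.03, -0.15 and 0.38, and they share a somite stage but no embryos that the labels name. Stage slopes with 1 library left out ran from -0.0509 to 0.10 for Rara, -0.0104 to 0.0681 for Rarg, -0.0494 to 0.0790 for Rxra and -0.00630 to 0.0614 for Rxrb. The cause of these changes in counts and slopes was not tested, and fits with libraries left out also had fewer samples. With 3 pools a group the smallest exact p is 0.1, and the interval for Rara reaches 51.8%.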
